A study of Mus musculus with 6 samples.

Results

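The regions described here were autosomal stretches of chromatin that were open in induced pluripotent stem cells (iPSCs) but had not passed the limit for an open region at any earlier time point, day 12 of reprogramming included. A region was a member when it had fewer than 25 normalised counts in mouse embryonic fibroblasts (MEFs) and at days 8, 9 and 10, fewer than 50 at day 12 and at least 100 in iPSC. Of the 223596 regions in the table, 218231 were autosomal, and 1590 of these met all 6 limits (0.729%). They are called late regions below. The limits used the values of all 6 libraries, so that low levels up to day 12 and high levels in iPSC were fixed by the choice and are given as a description.

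Accessibility was measured by ATAC-seq, in which a transposase cuts into open chromatin so that a region collects more reads the more open it is. Female MEFs came from Mus mothers with a GFP reporter on the X chromosome and Cast fathers, and cells whose inactive X chromosome was the one with GFP were kept by sorting. They were transduced before day 0 and reprogrammed with lentiviral, doxycycline-inducible reprogramming factors (OSKM, for Oct4, Sox2, Klf4 and c-Myc) in medium with ascorbic acid. Libraries were made from MEFs at day 0, from intermediates sorted for the surface marker SSEA1 (FUT4) at days 8, 9, 10 and 12, and from iPSC grown from picked colonies after doxycycline and ascorbic acid had been withdrawn, although another label lists ascorbic acid for iPSC medium. All 6 are titled as GFP-negative cells. Each of the 6 time points had 1 library, so that no difference had a replicate check and no p-value was computed. The iPSC library therefore differed from the day 12 library in colony picking, the SSEA1 sort, culture time and factor induction at once. By the label that gives its withdrawal, ascorbic acid differed too. These cannot be told apart. In bulk cells, fewer open cells and less opening per cell cannot be told apart either.

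Most cell type-specific open chromatin lies at distal regulatory elements, such as enhancers, where transcription factors displace nucleosomes. During reprogramming the delivered factors first meet chromatin set up for fibroblasts, and the endogenous pluripotency network, which keeps iPSCs stable without the transgenes, becomes active late. The table used here identified each region by a row number and a chromosome. Regions are therefore named by row number, and no position, gene or sequence is given for them.

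The depth was 22067333 to 32844411 reads in regions per library. Because MEF day 0 had a size factor of 0.498, against 0.798 to 1.40 in the other libraries, the limit of 25 normalised counts stood for 12.45 reads in MEF day 0 and for 27.6 to 35.0 reads at days 8 to 10. The limit of 50 stood for 55.55 reads at day 12 and the limit of 100 for 79.8 reads in iPSC.

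To see how the late regions moved up to the iPSC stage, their level was followed through all 6 libraries. The late regions lay low and close together up to day 10, had already risen at day 12 and rose again in iPSC. The median late region started from 10.0 normalised counts in MEF day 0. Days 8, 9 and 10 had medians of 12.7, 11.4 and 14.2, and day 12 and iPSC had medians of 37.8 and 125. The interquartile ranges were 10.3 to 18.96 on day 10, 30.8 to 44.1 on day 12 and 110 to 153 in iPSC, and none of these overlapped. That of MEF day 0 was 4.02 to 16.1. In the plot of levels by library the late regions are set beside the sets used for comparison.

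**Figure D1:**
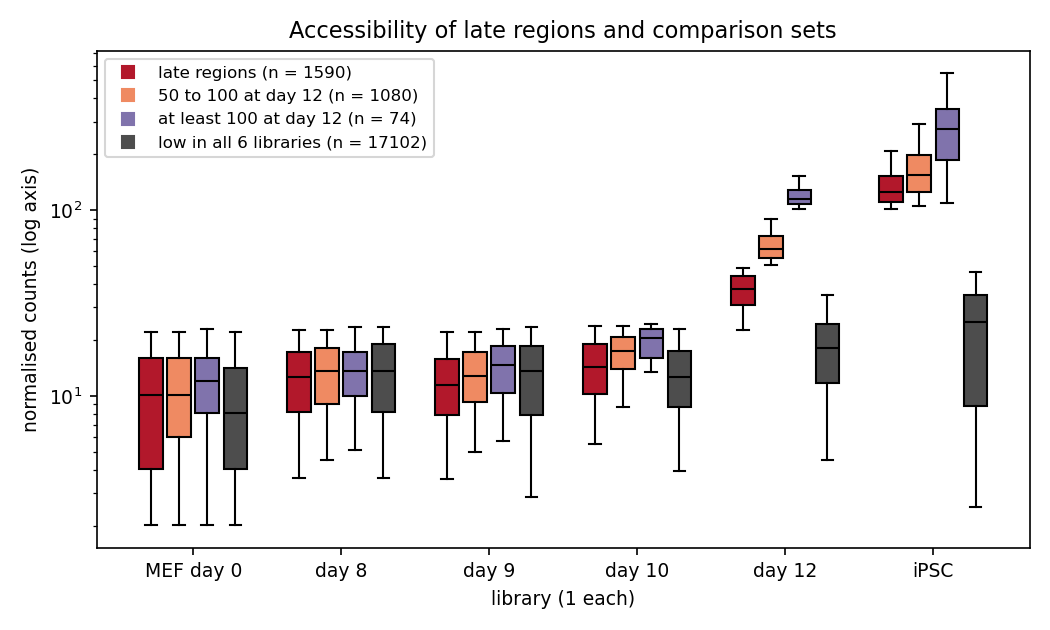
Normalised counts (log axis) in the 6 libraries for the 1590 late regions, for 1080 regions with 50 to 100 at day 12, for 74 regions with at least 100 at day 12 and for 17102 regions low in all 6 libraries. Lines in the boxes are medians, boxes are quartiles and whiskers run from the 5th to the 95th percentile over regions. The median of late regions went from 14.2 on day 10 to 37.8 on day 12 and 125 in iPSC.

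Expressed against all autosomal regions of the same library, the median late region stood at percentile 19.3 in MEF day 0 and at percentiles 10.2, 7.89 and 12.0 on days 8, 9 and 10. Day 12 brought it to percentile 45.3 and the iPSC stage to 76.8. The day 12 level was thus near the middle of all autosomal regions, whose median was 42.3 normalised counts. The word closed holds for these regions at day 12 only in the sense of the limit of 50.

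The share of the reads in regions that fell into the late regions needs no size factor and showed a similar course. It was 0.0308% in MEF day 0 (8362 reads, 95% exact interval 0.0302% to 0.0315%). The day 8 share was 0.0761% (0.0751% to 0.0772%), that of day 9 was 0.0822% (0.0812% to 0.0832%) and that of day 10 was 0.0939% (0.0929% to 0.0950%). By day 12 the share had reached 0.266% (0.264% to 0.268%), and the iPSC share was 0.788% (173962 reads, 0.785% to 0.792%). The share rose at every step, with the largest steps after day 10. The step from MEF day 0 to day 8 was larger on this scale than in normalised counts, whose sum over late regions rose by 1.18 (1.15 to 1.21), and from day 8 to day 9 that sum went to 0.971 (0.953 to 0.988). The share depends on the reads in all other regions too. From MEF day 0 to day 8 the sum of normalised counts over all autosomal regions went to 0.478. All intervals of reads given here allow for counting error alone, because reads copied in amplification are not separate molecules. They would widen by 1.41 times if each fragment had been counted by both of its ends.

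The step from day 10 to day 12 was described over single regions. The limits allowed it to go either way but left more room for a rise than for a fall. At day 12, 1557 of the 1590 late regions (97.9%) were above MEF day 0 and days 8, 9 and 10, which was the case for 19.1% of all autosomal regions. At least 2-fold more at day 12 than at day 10, on the scale of log2 of normalised counts plus 1, was found in 1143 late regions (71.9%), against 13.4% of all autosomal regions. At least 2-fold less was found in 2 late regions, against 13.7%. The sums over late regions rose by a factor of 2.58 (95% exact interval 2.54 to 2.62), while those over all autosomal regions went to 0.906 of the day 10 sum. For 1374 late regions (86.4%) the counting interval of their own ratio of day 12 to day 10 lay above 1. Part of the day 12 count and of these contrasts was set by the limits. Late regions were held below 25 up to day 10 and allowed up to 50 at day 12, while all autosomal regions were under no limit. With a limit of 25 at day 12 as well, a setting added once the values were known, 143 late regions were left and 76.9% of them were highest at day 12.

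Steps before day 10 were described in the same way. From MEF day 0 to day 8, 425 late regions (26.7%) were at least 2-fold higher and 143 (8.99%) at least 2-fold lower, against 35.3% and 35.2% of all autosomal regions. From day 8 to day 9 there were 128 (8.05%) and 137 (8.62%), against 4.85% and 5.21%, which gave no lean to either side. From day 9 to day 10 more late regions were higher than lower, with 223 (14.0%) against 57 (3.58%), where all autosomal regions had 3.87% and 4.67%. At these levels 2-fold corresponded to few reads, with a median of 16 reads at day 9 and 18 at day 10. The sum over late regions rose by 1.18 (1.16 to 1.20) from day 9 to day 10. Day 10 was above both day 8 and day 9 in 731 late regions (46.0%), as it was in 31.2% of all autosomal regions. At every step from day 8 to iPSC, 361 late regions (22.7%) rose, as did 5.79% of all autosomal regions. In late regions the limits required the step from day 12 to iPSC and favoured the step from day 10 to day 12. All autosomal regions were under no limit, so nothing is read from this contrast. The share was 31.9% in the set of 1080 regions more open at day 12 and 40.5% in the set of 74. It was 7.21% in the 17102 low regions.

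From day 12 to iPSC every late region rose, which the limits required. The median gain was 1.81 on the log2 scale, with quartiles of 1.52 and 2.16 and a range from 1.03 to 4.43. A gain of at least 4-fold was found in 563 late regions (35.4%), where 1.69% of all autosomal regions had one, and nothing is read from this count because the limits used both libraries. At day 12 the median late region had 27.9% of its own iPSC level, with quartiles of 21.9% and 34.2%, and at day 10 it had 10.6%. The highest such share at day 12 was 48.5%.

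To describe the day 12 level by the later iPSC level, the late regions were set beside the other autosomal regions that met the same limits up to day 12. With them there were 24293 such regions, of which 1590 reached at least 100 in iPSC, 5601 had 50 to 100 and 17102 stayed below 50. The last are called regions low in all 6 libraries, where low means only below these limits. Of the 17102, 52.5% were higher in iPSC than in all 5 earlier libraries, against 26.2% of all autosomal regions. At least 4-fold more in iPSC than in MEF day 0 was found in 30.2% of them, against 18.5%. The iPSC value played no part in the limits at day 12, so that the groups by iPSC level had the same ceiling there. Within these limits the day 12 median was higher in each group with a higher iPSC level, which is a description since the limits used both libraries. It was 9.90 normalised counts where iPSC had fewer than 10, 17.1 for 10 to 25, 22.5 for 25 to 50 and 30.6 for 50 to 100. Among late regions it was 36.9 for 100 to 150 in iPSC, 37.8 for 150 to 200 and 41.9 for 200 or more. Day 8 medians showed no such rise, with 18.1 in the group lowest in iPSC, 9.95 at 25 to 50 and 11.3 in the highest group. At day 10 they were 15.8 and 15.0 in the groups lowest in iPSC and then rose from 10.3 at 25 to 50 through 12.6, 13.4 and 15.0 to 15.8 in the highest group. The ratio of day 10 to day 9 sums also rose, from 0.897 in the lowest group to 1.25 in the highest. With 1 library per time point, these differences were not tested.

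**Figure D2:**
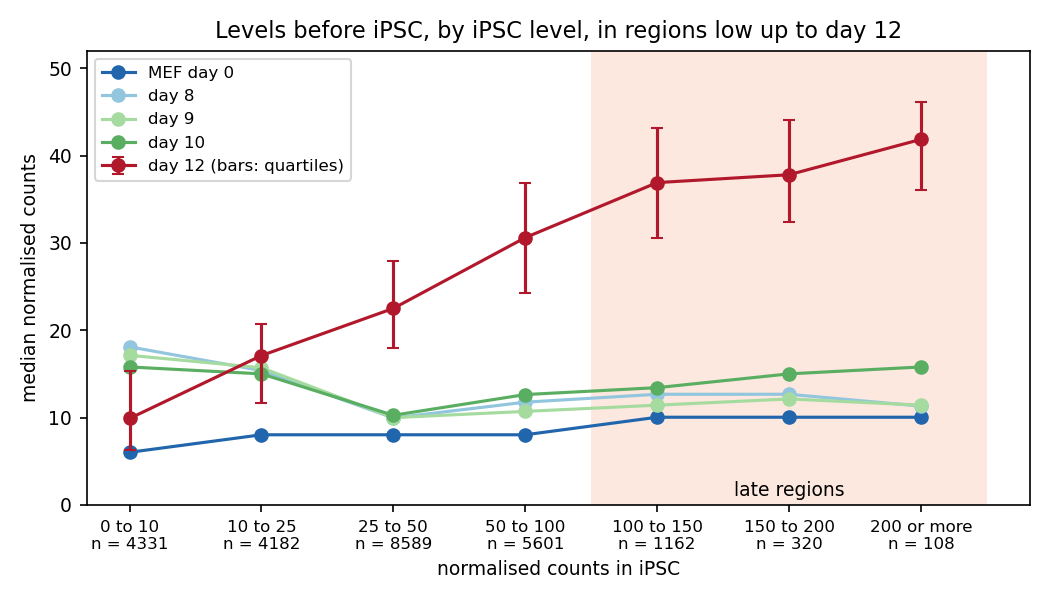
Median normalised counts before iPSC (vertical axis) for 24293 autosomal regions below 25 in MEF day 0 and days 8, 9 and 10 and below 50 at day 12, grouped by their normalised counts in iPSC (horizontal axis). Bars at day 12 are quartiles over regions and shading marks the late regions. The day 12 median rose from 9.90 to 41.9, and the day 10 median lay between 10.3 and 15.8, rising over the groups from 25 upward.

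In the regions low in all 6 libraries, 51.3% were highest at day 12 among the libraries before iPSC, against the 97.9% of late regions. The sum over them rose from day 10 to day 12 by 1.44 (1.43 to 1.44), against 2.58 for late regions, and 32.6% of them were at least 2-fold higher. The 5601 regions with 50 to 100 in iPSC lay near the late regions, with 93.3% highest at day 12 and a ratio of 2.40. Within the low regions the share was 10.6% below 10 in iPSC, 39.5% at 10 to 25 and 77.6% at 25 to 50. The ceiling also mattered for the contrast of late and low regions. With limits of 15 up to day 10 and 30 at day 12, all 142 remaining late regions and 96.2% of the low regions were highest at day 12. With a limit of 25 at day 12 the shares were 76.9% and 37.2%. A region entered the table because a peak was called, and how many libraries had to show the peak is not given in the sources used here, so that the low regions are a selected set too.

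Not every late region was highest at day 12 among the libraries before iPSC. In 33 of them the day 12 value did not exceed the highest of the 4 earlier libraries. Their day 12 values ran from 7.20 to 24.3 normalised counts, with a median of 19.8 against 17.4 at day 10, and their iPSC values from 100 to 192. Day 12 was below day 10 in 14 late regions and above it in the other 1576. None of the 33 reached 200 in iPSC, but only 6.79% of all late regions did, and nothing is read from so few. At the other end, 256 late regions (16.1%) were at least 4-fold higher at day 12 than at day 10, where 2.08% of all autosomal regions were. Their median went from 6.71 normalised counts at day 10 to 40.1 at day 12 and 125 in iPSC, and 16 of them reached 200.

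The iPSC level of late regions was modest. Of the late regions, 663 (41.7%) had from 100 to 120 normalised counts, 499 (31.4%) from 120 to 150, 320 (20.1%) from 150 to 200, 98 (6.16%) from 200 to 300 and 10 (0.629%) at 300 or more. The highest had 429. Among all 60836 autosomal regions with at least 100 in iPSC, called iPSC-open below, the median was 217, the 95th percentile 1073 and the highest 6301. At least 200 was reached by 54.2% of iPSC-open and by 6.79% of late regions, and 15453 iPSC-open regions (25.4%) lay above the highest late region.

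The limits left a narrow range in MEFs, and the values within it are given as a description. MEF day 0 had the lowest recovered value of 1 read in 218 late regions (13.7%), which can stand for 0 or 1 read, against 5.87% of all autosomal regions. These 218 had medians of 36.9 normalised counts at day 12 and 125 in iPSC. The 292 late regions nearest the MEF limit, with 18 to 25 there, had medians of 38.7 and 125. At day 10 the medians of these groups were 12.6 and 15.0.

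Among iPSC-open regions the late regions were a small share. Using 50 normalised counts as the mark of a first opening, 69.1% of the iPSC-open regions had passed it in MEF day 0 and 14.1% first passed it at day 8. Days 9, 10 and 12 were the first for 1.11%, 1.28% and 9.12%, and 5.38% (3274 regions) passed it only in iPSC. Of the last, the 1590 late regions are those that also had fewer than 25 up to day 10. They made up 2.61% of iPSC-open regions.

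The nearest sets by course were 1080 regions with the same limits up to day 10 but 50 to 100 at day 12, and 74 with at least 100 at day 12, all with at least 100 in iPSC. From day 10 to day 12 the sums rose by 3.81 (3.76 to 3.87) and 6.03 (5.74 to 6.34), against 2.58 for late regions, as the limits at day 12 imply. The iPSC level, for which the limit was the same, also differed, with a median of 125 for late regions, 154 for those with 50 to 100 at day 12 and 274 for those with at least 100. Day 10 levels, under the same ceiling of 25, had medians of 14.2, 17.4 and 20.5. Among these sets, medians at day 10 and in iPSC were higher where the day 12 level was higher. This is a description, since the limits used all of these libraries. In MEF day 0 the 3 sets had medians of 10.0, 10.0 and 12.0. These differences were not tested.

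Single regions were chosen by 2 measures, the iPSC level and the gain after day 12. The late region with the most counts in iPSC was in row 626 on chromosome 1. Its normalised counts, in the order of the libraries from MEF day 0 to iPSC, were 24.1, 22.6, 17.1, 17.4, 44.1 and 429. It was close to the limit in MEFs and at day 12 and still reached 9.72 times its day 12 level (95% exact interval 7.19 to 13.4).

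The region in row 173919 on chromosome 6 had nearly the same iPSC level and a different approach. It had 1 read each in MEF day 0 and at day 8 (2.01 and 0.905 normalised counts). Days 9, 10 and 12 had 7.14, 15.8 and 18.9, and iPSC had 427. Its gain from day 12 of 4.43 on the log2 scale was the largest of all late regions, a ratio of 22.6 (14.6 to 37.0). From day 10 to day 12 its ratio was 1.20 (0.617 to 2.33), an interval that includes 1.

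A second region on chromosome 6, in row 172749, had 4.02, 14.5, 12.8, 14.2, 39.6 and 412 normalised counts in the order of the libraries. It had risen at day 12 by 2.79 (1.58 to 5.12) and rose by 10.4 (7.58 to 14.6) to iPSC. The region in row 100986 on chromosome 18 went through 4.02, 12.7, 10.7, 16.6, 29.7 and 330 normalised counts. These regions and row 173919 were among the 8 leading regions by both measures. The other regions among the 8 with most counts in iPSC, on chromosomes 4, 12, 16 and 17, had 36.0 to 43.2 normalised counts at day 12 and 328 to 362 in iPSC.

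The largest gains after day 12 also included regions close to the iPSC limit that were lower at day 12 than in any earlier library. The region in row 111897 on chromosome 2 had 24.1, 22.6, 23.6, 22.9, 8.10 and 104 normalised counts in the order of the libraries. Its ratio of day 12 to day 10 was 0.354 (0.147 to 0.767), and as the region was chosen for a large gain after day 12, a low day 12 value was favoured by the choice. The region in row 99556 on chromosome 18 had 16.1 to 16.6 normalised counts from MEF day 0 to day 10, then 7.20 at day 12 (8 reads) and 100 in iPSC (80 reads), with a ratio of day 12 to day 10 of 0.434 (0.166 to 1.02). In contrast, row 150502 on chromosome 4 had 19.99 at day 9, 10.3 and 9.90 on days 10 and 12, and 129 in iPSC. In the remaining regions of this list, rows 112772 on chromosome 2 and 167100 on chromosome 5, day 12 was above day 10, with 24.3 against 12.6 and 17.1 against 6.32.

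**Figure D3:**
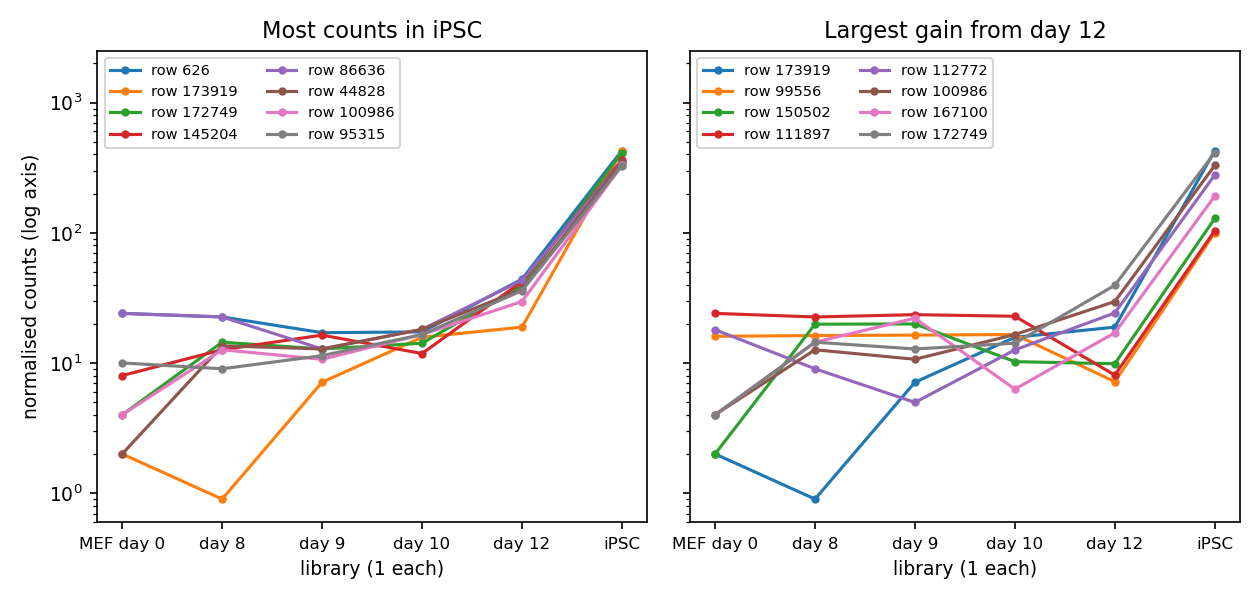
Normalised counts (log axis) in the 6 libraries for the 8 late regions with most counts in iPSC (left) and the 8 with the largest gain from day 12 to iPSC (right), named by row number, with 3 regions in both. On the left all regions end between 328 and 429. On the right the regions in rows 99556 and 111897 dip at day 12 to 7.20 and 8.10.

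The limits cut through a continuous range, and many late regions lay near them. Within 10% of a limit lay 385 late regions in iPSC and 349 at day 12. The nearest late region to the iPSC limit had 100.3 normalised counts (80 reads) and the nearest region outside it 99.0 (79 reads). At day 12 the values were 49.5 (55 reads) and 50.4 (56 reads), in MEF day 0 24.1 (12 reads) and 26.1 (13 reads), and on days 8, 9 and 10 they were 24.4 and 25.3, 24.99 and 25.7, and 24.5 and 25.3. Only the iPSC limit kept out 22703 regions, only the day 12 limit 1154 and only the MEF limit 721. In all, 318 late regions had a 95% exact Poisson interval below 50 at day 12 and at or above 100 in iPSC. In these the median was 12.6 normalised counts at day 10, 30.6 at day 12 and 149 in iPSC, and 304 of the 318 (95.6%) were highest at day 12 before iPSC.

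Which single regions were members depended on the scaling. With reads thinned to the shallowest library and size factors computed anew, 1664 regions met the limits, 797 of them among the 1590. The new size factors also changed how many reads each limit stood for, so that this setting does not show the part of depth alone. With equal autosomal totals in place of the deposited size factors 881 met them, 604 of them among the 1590. Quantile normalisation changed membership less, with 1343 regions, 1222 of them among the 1590. The day 12 to day 10 ratio of the sums was 2.56, 2.80 and 2.82 under these settings, in this order.

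To see how the late regions were spread over the genome, they were counted by chromosome. As a share of iPSC-open regions they ranged over the 19 autosomes from 1.65% on chromosome 11 (78 of 4735, 95% exact interval 1.30% to 2.05%) to 3.63% on chromosome 14 (82 of 2259, 2.90% to 4.49%). Chromosome 18 had 3.62% (2.84% to 4.54%), chromosome 1 3.44% (2.89% to 4.06%) and chromosome 15 1.92% (1.44% to 2.52%). The SD over autosomes was 0.620 percentage points. Intervals of chromosomes 11 and 14 did not overlap, whereas chromosomes next to each other in the order of this share had overlapping intervals. Each region counts as a separate draw in these intervals, which may be too narrow because neighbouring rows were related in level. Across the 19 autosomes the late share was lower where more of the regions were iPSC-open (Spearman rho -0.71), and it went with the share of iPSC-open regions that had 50 to 100 at day 12 (rho 0.70). Both are descriptions over chromosomes of the same libraries, and the shares have the iPSC-open count in common.

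The same limits were applied to the X chromosome, which the choice of members had left out. Of 5357 X-linked regions 179 met them (3.34%, 95% exact interval 2.88% to 3.86%), against 0.729% of autosomal regions. Among iPSC-open regions the share was 8.35% on the X chromosome (7.22% to 9.61%) and above every autosome, 3.20 times the 2.61% of autosomes together. Regions with 50 to 100 at day 12 were likewise 4.99% of iPSC-open regions on the X chromosome (107 of 2143, 4.11% to 6.00%), against 1.78% on autosomes and at most 2.83% on any 1 of them, so that the excess was not particular to late regions. The X-linked regions had a median of 8.03 normalised counts in MEF day 0, and days 10 and 12 had 12.6 and 36.0, with 135 in iPSC. Of the 179 regions, 176 (98.3%) were highest at day 12 before iPSC. Their day 12 level was thus close to the 37.8 of the late autosomal regions. The X-linked values sum the active and the inactive X chromosome of female cells, which the table does not split. Under the alternative settings the ratio of X-linked to autosomal share lay between 2.31 with an iPSC limit of 50 and 6.00 with limits of 15 and 30.

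**Figure D4:**
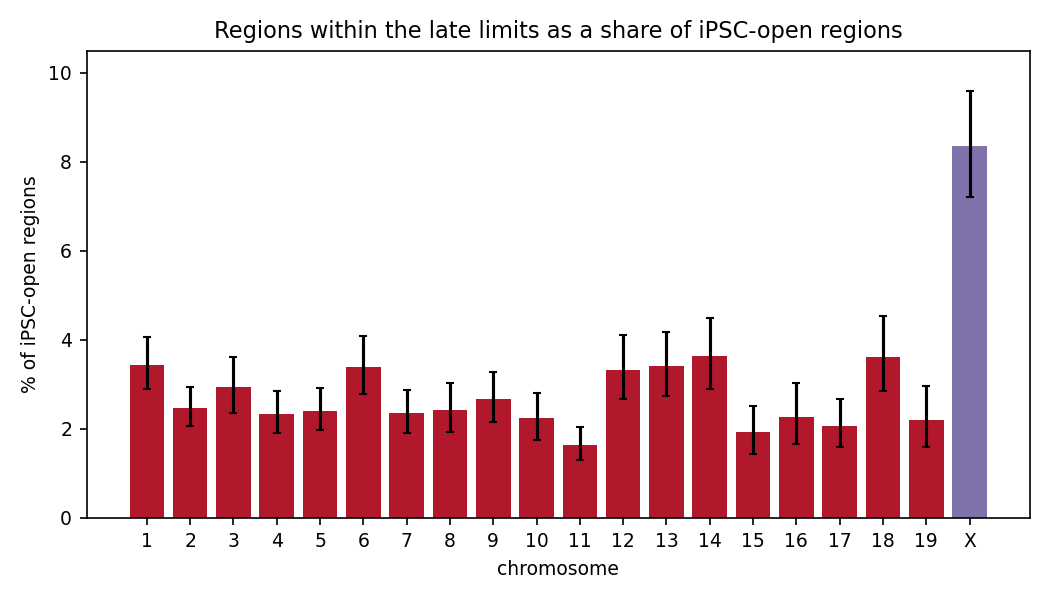
Regions within the late limits as a percentage of the regions with at least 100 normalised counts in iPSC, for each of the 19 autosomes and the X chromosome. Bars start at 0 and lines are 95% exact binomial intervals. Autosomes lie between 1.65% and 3.63% and the X chromosome at 8.35%.

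The place of a region in the table was not used to choose members. Rows were grouped by chromosome, and iPSC log2 values of autosomal rows on the same chromosome had a Pearson r of 0.227 for neighbouring rows, 0.102 for rows 10 apart and 0.0173 for rows 200 apart, so that row order carried some regional order. Distances in bases between rows are not known here. Of the 1590 late regions, 73 (4.59%, 95% exact interval 3.62% to 5.74%) had another late region in at least 1 of the rows before and after. Per neighbouring row, 74 of 3179 (2.33%, 1.83% to 2.91%) were late regions, where 0.729% of all autosomal regions were. This was not particular to rows beside late regions. Late regions also made up 2.04% (1.48% to 2.73%) of rows beside the set of 1080 regions more open at day 12. Beside the set of 74 regions most open at day 12 they made up 2.70% (0.741% to 6.78%), and beside the low regions 1.09%. These differences were not tested. The 73 formed 35 pairs and 1 run of 3 rows, and the other 1517 stood alone. With an iPSC limit of 200 none of 108 regions had such a neighbour (exact upper bound 3.36%).

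The run of 3 lay in rows 57677 to 57679 on chromosome 13. Its regions had 3.16, 3.16 and 6.32 normalised counts at day 10, 38.7, 32.4 and 45.0 at day 12 and 117, 153 and 138 in iPSC. They rose together at day 12, by 12.3 (4.45 to 47.0), 10.3 (3.68 to 39.7) and 7.12 (3.35 to 17.4), more than the 2.58 of late regions as a whole.

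Rows next to late regions were more often iPSC-open than other rows. Of 3179 neighbouring rows 33.8% had at least 100 normalised counts in iPSC, against 27.9% of the rows next to any autosomal region and 21.4% of those next to regions low in all 6 libraries. This was not particular to late regions, since it was 35.8% next to regions with 50 to 100 at day 12 and 42.6% next to those with at least 100. Neighbours with at least 4-fold more in iPSC than in MEF day 0, and at least 50 in iPSC, made up 25.1%, against 13.4% and 15.0%, and beside the sets more open at day 12 they made up 26.8% and 27.0%. Neighbours highest at day 12 before iPSC made up 32.7%, against 19.1% and 24.0%, and 34.8% and 37.2% beside the sets more open at day 12. Rows open in MEFs were fewer beside late regions, since 35.8% had at least 50 in MEF day 0, against 46.4% beside any autosomal region, but the value beside low regions was similar at 37.3%. At least 50 in all 6 libraries was found in 13.3%, against 18.8% and 11.1%. At 10 rows away the share of iPSC-open rows was 28.7% before and 28.8% after a late region, near the 27.9% of all autosomal rows. These differences were not tested.

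**Figure D5:**
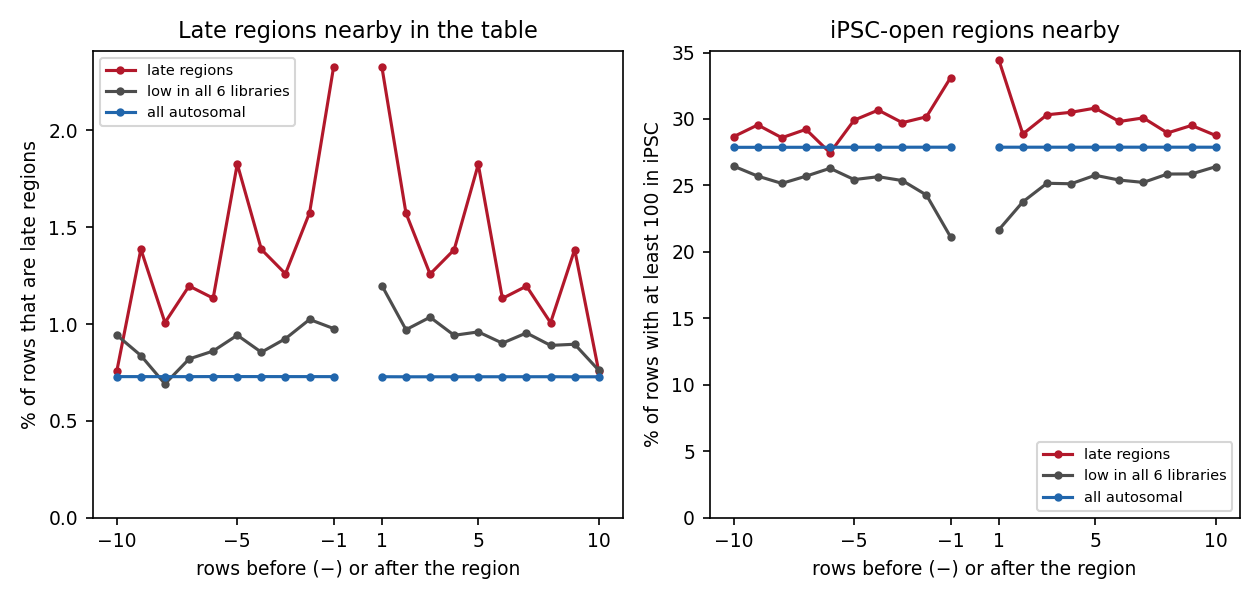
Percentage of rows that are late regions (left) and percentage with at least 100 normalised counts in iPSC (right), for rows 1 to 10 places before or after a late region, a region low in all 6 libraries or any autosomal region. Next to a late region 2.33% of rows were late regions, with 1.01% to 1.83% at 2 to 9 rows before or after and 0.756% at 10 rows, against 0.729% of all autosomal regions.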

How the data were processed

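The table was processed by the authors with the ENCODE ATAC-seq pipeline, alignment to GRCm38/mm10 and a read count matrix from DiffBind 3.8 over shared regions. Counts were divided by DESeq2 1.21.22 size factors by the authors, who deposited log2 values, not split by allele. The versions are those of the submitters' processing notes. Each time point in the labels was 1 group, with 1 library, and the 6 columns were matched to samples by title.

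Normalised counts were 2 to the power of the deposited log2 value minus 1. All values were whole multiples of 1 step per library (100.0% within 0.001 of a whole number), which gave the reads per region. The lowest value was 1 read in every library. Size factors assume that the typical region does not change. Log2 differences used a pseudocount of 1 and understate the change of low regions. Shares and ratios of reads have exact (Clopper-Pearson) 95% intervals and single counts exact Poisson intervals, for counting error only. Shares of regions or rows also have exact binomial intervals, which take each region or row as a separate draw. Neighbouring rows were related in level, so that these intervals may be too narrow. No test was made, and regions, rows and chromosomes were not taken as replicates of a time point.

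Named regions were the 8 late regions with most normalised counts in iPSC, the 8 with the largest log2 difference from day 12 to iPSC, the longest run of neighbouring late rows and the regions nearest each limit. The members, limits and comparison sets were chosen with earlier results of these data known. No gene or marker list could be applied, since regions carried no gene. The choice of members was tested on simulated data with regions planted well inside the limits. Most of the planted regions had to be found, which does not check regions near the limits. Alternatives were other scalings, thinned reads, other limits, a pseudocount of 10 and a filter on reads. Python 3.11.15 with numpy 2.4.6, pandas 2.3.3, scipy 1.17.1 and matplotlib 3.10.9 was used.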

Additional observations from a re-analysis of the deposited data

How the results depend on the processing

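The number of late regions, 1590, moved to 881 with equal autosomal totals, 142 with limits of 15 and 30, 5321 with limits of 40 and 80, 108 with an iPSC limit of 200, 7191 with an iPSC limit of 50 and 143 with a day 12 limit of 25. It was 2311 with no limit in MEF day 0. The last 2 settings were chosen after the data were seen. Other limits admit other regions by construction, and the cause of the shift under equal totals was not tested.

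The ratio of iPSC to day 12 sums, 3.72, is above 1 by the limits themselves in each setting. It was 3.32 with equal autosomal totals, 3.98 with quantile normalisation, 3.77 with thinned reads, 4.96 with limits of 15 and 30, 3.03 with limits of 40 and 80, 6.00 with an iPSC limit of 200 and 2.60 with an iPSC limit of 50. The share highest at day 12 before iPSC, 97.9%, was 99.9% with equal autosomal totals, 95.01% with quantile normalisation, 100.0% with limits of 15 and 30 and with an iPSC limit of 200, 94.5% with limits of 40 and 80, 94.3% with an iPSC limit of 50 and 76.9% with a day 12 limit of 25. In regions low in all 6 libraries it ranged from 30.3% with limits of 40 and 80 to 96.2% with limits of 15 and 30.

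The share with a late region in a neighbouring row, 4.59%, was 2.72% with equal autosomal totals, 2.82% with limits of 15 and 30, 10.9% with limits of 40 and 80, 0% with an iPSC limit of 200, 13.2% with an iPSC limit of 50 and 5.97% with no limit in MEF day 0. The late share of iPSC-open autosomal regions, 2.61%, was 1.36% with equal autosomal totals, 2.23% with quantile normalisation, 3.28% with thinned reads, 0.233% with limits of 15 and 30, 8.75% with limits of 40 and 80, 0.327% with an iPSC limit of 200, 7.34% with an iPSC limit of 50 and 3.80% with no limit in MEF day 0. On the X chromosome, the 8.35% became 4.92% with equal autosomal totals, 9.95% with thinned reads, 1.40% with limits of 15 and 30, 20.5% with limits of 40 and 80, 1.33% with an iPSC limit of 200, 17.0% with an iPSC limit of 50 and 10.8% with no limit in MEF day 0. It was above the autosomal share in each.

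Equal autosomal totals changed values against day 12 by -1.28 on the log2 scale in MEF day 0 and by -0.30 in iPSC, while days 8 and 10 changed by -0.25 and -0.14. A minimum of 5 reads at day 12 removed no late region. No paired analysis was possible because each time point had 1 library. Read counts of late regions were lowest in MEF day 0, where the median late region had 5 reads. Its depth was not the lowest, with 27121103 reads in regions against 22067333 in iPSC. With its size factor of 0.498, the limit there stood for 12.45 reads.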
